A study of Mus musculus with 13 samples.

Results

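Cells load amino acids onto transfer RNAs with aminoacyl-tRNA synthetases, and 37 genes for these enzymes were followed here in mouse splenic B cells. They were taken from 23337 gene symbols by name alone: each symbol made of 1 capital letter and "ars", with or without a final 2, and Eprs, Farsa and Farsb. The final 2 marks enzymes of mitochondria, so the set held 20 cytosolic and 17 mitochondrial enzymes. All 37 had enough reads to be tested, so no member is missing from any count.

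Each synthetase joins 1 amino acid to the tRNAs that carry it, the step that gives the ribosome its charged tRNAs. Cytosolic enzymes serve the translation of nuclear genes. Mitochondrial enzymes, also encoded in the nucleus and imported, serve the few proteins made from mitochondrial DNA. Gars and Kars, the glycyl and lysyl enzymes, work in both compartments. Eprs carries the glutamyl and the prolyl enzyme in a single chain, and Farsa and Farsb are the subunits of the cytosolic phenylalanyl enzyme. In mammals 8 of the cytosolic enzymes, those encoded by Eprs, Iars, Lars, Mars, Qars, Rars, Kars and Dars, sit in a multi-synthetase complex on the scaffold proteins Aimp1, Aimp2 and Eef1e1. A resting B cell is small and makes little protein, and stimulation through its receptor starts growth and protein synthesis before division.

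The groups compared were 4, all from primary splenic B cells selected by removing CD43-bearing cells with beads. Deficient stimulated cells (n = 3) were Regnase-1 f/f hCD20TamCre and received anti-IgM F(ab')2 for 4 h, which crosslinks the B cell receptor (BCR). Deficient unstimulated cells (n = 3) had the same genotype without the antibody. Control stimulated cells (n = 3) were Regnase-1+/+ hCD20TamCre with the same 4 h of anti-IgM F(ab')2, and control unstimulated cells (n = 4) had that genotype without it. Every group thus carried hCD20TamCre, a Cre recombinase made in B cells and switched on by tamoxifen. Regnase-1, encoded by Zc3h12a, is an RNase that degrades mRNAs of immune genes. The labels as read here give no age, no tamoxifen schedule and no culture time for the unstimulated cells, so time in culture and the antibody cannot be told apart. They also do not say that libraries of a group came from separate animals, and p-values then measure the spread between these samples only.

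Libraries held 21407724 to 33244755 counts. Zc3h12a was at 92.6 to 113 CPM (read counts scaled to the same total in every library, after TMM normalization) in deficient stimulated libraries, against 147 to 157 CPM in control stimulated libraries, and at 89.2 to 111 CPM in deficient unstimulated libraries, against 121 to 131 CPM in control unstimulated libraries. In each state the deficient libraries were the lower ones, with no overlap. The log2 difference passed edgeR's quasi-likelihood test in stimulated cells (-0.58 ± 0.08, SE; adjusted p = 0.000784) and not in unstimulated cells (-0.32 ± 0.07; adjusted p = 0.106), and exons outside the floxed part can still give reads. The 7 B cell markers, among them Cd79a and Ms4a1, were present in every library. Markers of T cells (6.41 to 41.0 CPM summed over 7 genes) and platelets (3.18 to 8.29 CPM over 4 genes) were low. Erythroid markers reached 1252 CPM and 1379 CPM in the stimulated and unstimulated deficient libraries numbered 1, with Hba-a1 at 0 throughout. They summed to 142 to 806 CPM in the remaining deficient libraries and to 321 to 793 CPM in control libraries.

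After 4 h of BCR stimulation most synthetase genes rose, and the cytosolic enzymes rose more than the mitochondrial ones. In deficient cells 27 of the 37 genes rose and 5 fell at an adjusted p under 0.05, where 28.3% of all 13574 genes tested rose and 29.6% fell. In control cells 29 rose and 5 fell, where 28.5% of all genes rose and 31.8% fell. Among cytosolic enzymes 18 of 20 rose in deficient cells and 18 of 20 in control cells, Qars fell in both, and Vars was not called in either. Of the 17 mitochondrial enzymes, 9 rose and 4 fell in deficient cells, and 11 rose and 4 fell in control cells. The median log2 change was 0.99 for cytosolic and 0.35 for mitochondrial enzymes in deficient cells, beside -0.11 for all genes, and 1.02 and 0.39 in control cells, beside -0.13 for all genes. Calls come from edgeR's quasi-likelihood test on the deposited counts with Benjamini-Hochberg adjustment over all genes tested. Stimulated and unstimulated libraries did not overlap for 29 members that were higher and 4 that were lower in deficient cells. Over all 13574 genes these counts were 4088 and 4326. In control cells 29 members were higher and 6 lower without overlap, and 4033 and 4582 of all genes. A lack of overlap is thus common over all genes in both responses. In bulk RNA, fewer cells of a type and less RNA per cell cannot be told apart.

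**Figure D1:**
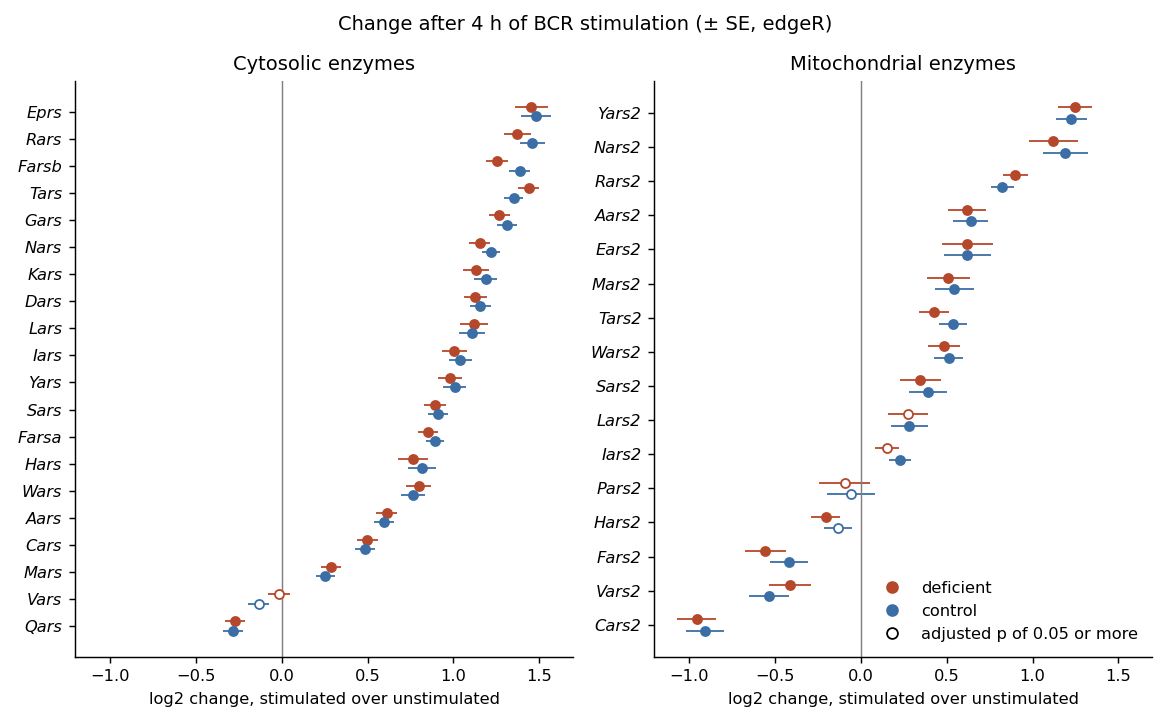
Log2 change (x axis, stimulated over unstimulated, edgeR, bars ± SE) of each synthetase gene (rows) in deficient and control cells, with open points for an adjusted p of 0.05 or more. Cytosolic enzymes reach from -0.28 for Qars to 1.48 for Eprs in control cells, and mitochondrial enzymes from -0.91 for Cars2 to 1.23 for Yars2.

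The calls depend on the scaling for a few genes that moved little. TMM scaling, used here, corrects for differences in RNA composition between libraries. With library totals alone, an alternative chosen after the data were seen, the median of all genes moved to -0.26 in deficient and -0.28 in control cells. Then 25 members rose and 7 fell in deficient cells, and 26 rose and 7 fell in control cells, while the split over all genes became 3142 higher and 5063 lower in deficient cells (3841 and 4015 with TMM) and 3203 higher and 5375 lower in control cells (3873 and 4318 with TMM). Vars was then called lower in both genotypes, at -0.17 and -0.28, and the rise of Mars was no longer called in either, at 0.13 and 0.11. Markers moved with stimulation too: the summed B cell list was at 2234 to 2394 CPM in deficient stimulated libraries, against 5381 to 6406 CPM in deficient unstimulated libraries. It was at 2129 to 2212 CPM in control stimulated libraries, against 5624 to 6319.8 CPM in control unstimulated libraries. Blnk of this list was higher after stimulation, at 358 to 411 CPM against 258 to 319 CPM in deficient cells. In control cells Blnk was at 343 to 348 CPM against 269 to 300 CPM. The other genes of the list were lower. The sum of the plasma cell list rose through Irf4, a transcription factor gene that B cell stimulation induces. Irf4 was at 1959 to 2656 CPM in deficient stimulated libraries against 364 to 534 CPM in deficient unstimulated libraries. In control cells it was at 2823 to 3188 CPM in stimulated libraries against 448 to 555 CPM in unstimulated libraries. Sdc1 of the same list was lower after stimulation, at 11.7 to 13.8 CPM against 19.9 to 35.0 CPM in deficient cells. In control cells Sdc1 was at 18.8 to 22.0 CPM against 40.4 to 45.9 CPM. Xbp1 was lower in control cells (58.4 to 59.8 against 78.6 to 83.2 CPM) and overlapped in deficient cells. Prdm1 was higher in both genotypes. Myeloid markers summed to 72.1 to 177 CPM in deficient stimulated libraries against 134 to 488 CPM in deficient unstimulated libraries, and to 82.2 to 167 CPM in control stimulated libraries against 141 to 416 CPM in control unstimulated libraries. Neutrophil markers lay between 12.7 and 199.8 CPM in all libraries. The part of these marker shifts in the synthetase changes was not tested.

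Promoter sequence was read for every member that had a window. RefSeq (GRCm38.p6) gave a window of 300 bases, 250 before the start site and 50 from it on, for 27 of the 37 genes, 13 cytosolic and 14 mitochondrial. Windows were searched on both strands for CACGTG, the E-box letters that MYC with MAX can bind, and for TGATGNAA, the core letters of the composite element that ATF4 can bind. A gene was counted if any of its windows held the letters. The TGATGNAA letters stood in windows of 5 of 13 cytosolic genes (38.5%), Aars, Gars, Iars, Tars and Yars. They stood in those of 0 of 14 mitochondrial genes and of 4.51% of all 27025 genes with a window. CACGTG stood in windows of 4 of 13 cytosolic genes (30.8%), Aars, Farsb, Iars and Tars. It stood in those of 1 of 14 mitochondrial genes, Ears2, and of 8.09% of all genes with a window. Aars, Iars and Tars held both, as did 0.3% of all windows, and no match overlapped another. These are matches of letters, and no binding was measured.

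The windows of Aars (chr8:111033592-111033891, plus strand), Iars (chr13:49681880-49682179, plus strand) and Tars (chr15:11399609-11399908, minus strand) are shown because they hold both motifs. Each reads 5′ to 3′ along the gene, with the motif letters of either strand in capitals: CACGTG for the E-box, and TTGCATCA or TTTCATCA where TGATGNAA lies on the other strand.
Aars: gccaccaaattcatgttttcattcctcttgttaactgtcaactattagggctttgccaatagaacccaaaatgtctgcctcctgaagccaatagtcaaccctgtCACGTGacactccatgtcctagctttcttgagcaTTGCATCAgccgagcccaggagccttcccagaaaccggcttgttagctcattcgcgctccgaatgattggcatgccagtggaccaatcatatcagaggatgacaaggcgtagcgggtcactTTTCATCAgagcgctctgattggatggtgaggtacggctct
Iars: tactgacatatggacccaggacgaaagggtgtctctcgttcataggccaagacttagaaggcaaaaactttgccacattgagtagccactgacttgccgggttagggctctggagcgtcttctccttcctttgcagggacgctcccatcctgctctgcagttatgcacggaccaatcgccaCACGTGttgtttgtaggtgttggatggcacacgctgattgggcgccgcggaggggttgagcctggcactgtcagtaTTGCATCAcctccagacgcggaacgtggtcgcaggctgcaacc
Tars: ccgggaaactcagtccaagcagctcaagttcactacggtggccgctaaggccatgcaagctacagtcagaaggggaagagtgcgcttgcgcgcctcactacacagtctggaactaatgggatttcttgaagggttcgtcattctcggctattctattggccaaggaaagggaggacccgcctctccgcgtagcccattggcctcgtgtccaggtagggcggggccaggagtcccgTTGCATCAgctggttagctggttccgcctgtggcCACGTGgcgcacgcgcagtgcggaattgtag

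The other matches are shown with 10 bases on each side, in the direction that reads the motif, which stands in capitals. Gars (chr6, at base -30 from the start site) and Yars (chr4, at base 4) carried TGATGNAA. Farsb (chr1, at base -39) and Ears2 (chr7, at base 22) carried CACGTG.
Gars: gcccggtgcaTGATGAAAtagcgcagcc
Yars: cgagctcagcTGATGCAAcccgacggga
Farsb: agacaggcatCACGTGagacagccca
Ears2: cgaaggagccCACGTGtgtgtttcta

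Eprs (chr1:185362794-185363093, plus strand), Yars2 (chr16:16302715-16303014, plus strand) and Nars2 (chr7:96951277-96951576, plus strand) had the largest rises of their class among genes with a window, and their windows hold neither motif.
Eprs: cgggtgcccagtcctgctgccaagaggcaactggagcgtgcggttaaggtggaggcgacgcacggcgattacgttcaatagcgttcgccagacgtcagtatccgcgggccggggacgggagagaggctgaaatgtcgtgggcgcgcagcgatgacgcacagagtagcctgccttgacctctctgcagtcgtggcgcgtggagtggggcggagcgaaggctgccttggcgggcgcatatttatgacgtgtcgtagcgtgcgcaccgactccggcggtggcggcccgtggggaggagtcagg
Yars2: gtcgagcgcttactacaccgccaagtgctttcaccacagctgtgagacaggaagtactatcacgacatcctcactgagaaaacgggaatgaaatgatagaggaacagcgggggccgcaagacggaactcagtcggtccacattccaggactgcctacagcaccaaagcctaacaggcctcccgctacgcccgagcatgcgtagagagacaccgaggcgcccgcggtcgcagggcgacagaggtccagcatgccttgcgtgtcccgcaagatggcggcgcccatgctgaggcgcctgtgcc
Nars2: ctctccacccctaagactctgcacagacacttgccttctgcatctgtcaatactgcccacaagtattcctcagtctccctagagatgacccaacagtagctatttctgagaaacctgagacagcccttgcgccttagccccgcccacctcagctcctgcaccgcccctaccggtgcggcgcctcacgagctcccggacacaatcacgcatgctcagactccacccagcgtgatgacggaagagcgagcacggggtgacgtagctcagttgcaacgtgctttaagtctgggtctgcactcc

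Median rises after stimulation were close with and without the TGATGNAA letters. The 5 cytosolic enzymes with them had a median log2 change of 1.01 in deficient and 1.04 in control cells, and the 8 cytosolic enzymes whose window lacks them had 1.01 and 1.03. In control cells the first set spanned 0.60 to 1.35 and the second -0.28 to 1.48, so the ranges overlapped.

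Summed over the 20 genes, cytosolic enzymes were higher in stimulated cells. Their summed level was 7829, 8463 and 8671 CPM in deficient stimulated libraries 1 to 3, against 4407, 4556 and 4298 CPM in deficient unstimulated libraries. It was 8562, 8985 and 8437 CPM in control stimulated libraries, against 4545, 4903, 4516 and 4390.0 CPM in control unstimulated libraries 1 to 4. Stimulated libraries lay above all unstimulated ones in both genotypes, 1.88-fold in deficient and 1.89-fold in control cells. The 17 mitochondrial enzymes summed to 456, 467 and 472 CPM in deficient stimulated libraries, against 360.1, 399.9 and 388 CPM in deficient unstimulated libraries. In control cells they summed to 467, 451 and 433 CPM in stimulated libraries, against 386, 378, 342 and 346 CPM in unstimulated libraries. These groups did not overlap either, and the folds were 1.21 in deficient and 1.24 in control cells. Without TMM scaling the log2 changes of the cytosolic sums were 0.76 in deficient and 0.77 in control cells, against 0.91 and 0.92 with it, and those of the mitochondrial sums were 0.13 and 0.16, against 0.28 and 0.31 with it.

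**Figure D2:**
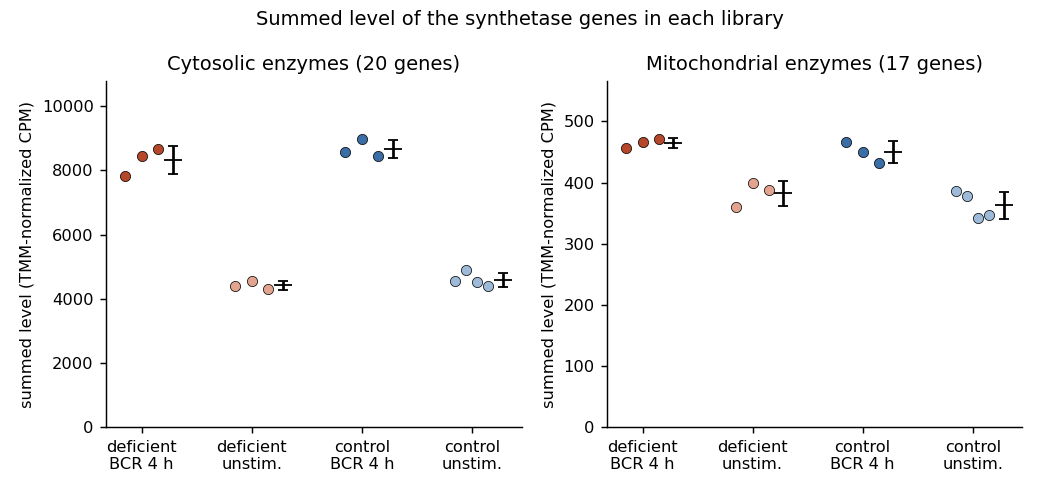
Summed TMM-normalized CPM (y axis) of the 20 cytosolic and the 17 mitochondrial enzymes in each library (points), with mean ± SD per group (n = 3, and 4 for control unstimulated). Stimulated libraries lie above unstimulated ones of their genotype in both panels, by 1.88-fold and 1.89-fold for cytosolic and 1.21-fold and 1.24-fold for mitochondrial enzymes.

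The balance between the compartments moved accordingly. Cytosolic reads exceeded mitochondrial ones 17.9 ± 0.643 times in deficient stimulated libraries (SD, n = 3), against 11.6 ± 0.596 times in deficient unstimulated libraries (n = 3). In control cells the ratio was 19.3 ± 0.833 in stimulated libraries (n = 3), against 12.7 ± 0.626 in unstimulated libraries (n = 4). This ratio does not depend on the scaling of the libraries. Between genotypes the ranges overlapped, at 17.2 to 18.4 in deficient and 18.3 to 19.9 in control stimulated libraries, and at 11.1 to 12.2 in deficient and 11.8 to 13.2 in control unstimulated libraries.

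Per kilobase of annotated exon, which allows levels of different genes to be compared, the classes were apart in resting control cells. Cytosolic enzymes spanned 23.0 to 131 CPM per kb with a median of 69.2, and mitochondrial enzymes 1.63 to 12.1 CPM per kb with a median of 5.15. Vars, the valyl enzyme, stood highest at 131 ± 7.67 CPM per kb (SD, n = 4), followed by Nars, the asparaginyl enzyme, at 122 ± 4.25, and Gars at 106 ± 6.28. The mean ± SD ranges of Vars and Nars overlap, so their order is within the spread. Farsb was the lowest cytosolic gene at 23.0 ± 1.87 CPM per kb, still above Hars2, the highest mitochondrial one, at 12.1 ± 0.718. In control stimulated cells Nars reached 284, Gars 262 and Eprs 229 CPM per kb, and Vars, no longer first, stood at 119. Exon length is that of all annotated transcripts together, which lowers the value of genes with long rarely used exons: Mars2 (11294 bases) came lowest at 1.63.

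Among the cytosolic enzymes, Eprs rose most in control cells. Eprs (chromosome 1, 185363044 to 185428360, plus strand, mm10) had 949.8, 1135 and 1187 CPM in deficient stimulated libraries 1 to 3, against 374, 418 and 401 CPM in deficient unstimulated libraries. In control cells it had 1062, 1207 and 1106 CPM in stimulated libraries, against 363, 457, 401 and 392 CPM in unstimulated libraries. Stimulated and unstimulated libraries were far apart in both genotypes. The log2 change was 1.45 ± 0.09 (SE; adjusted p = 2.1e-09) in deficient and 1.48 ± 0.09 (adjusted p = 4.9e-10) in control cells.

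Rars, the arginyl enzyme of the complex (chromosome 11, 35808381 to 35834506, minus strand), followed. It had 213, 236 and 249 CPM in deficient stimulated libraries, against 81.6, 97.0 and 91.2 CPM in deficient unstimulated libraries. Control stimulated libraries had 235, 246 and 229.6 CPM, against 84.2, 96.2, 80.7 and 83.4 CPM in control unstimulated libraries. No stimulated library overlapped an unstimulated one, and the log2 change was 1.37 ± 0.08 in deficient and 1.46 ± 0.07 in control cells. Farsb, the beta subunit of the phenylalanyl enzyme (chromosome 1, 78417975 to 78488897, minus strand), rose as well. Its levels were 129, 131 and 132 CPM in deficient stimulated libraries, against 54.3, 56.1 and 54.1 CPM in deficient unstimulated libraries. They were 129, 139 and 129 CPM in control stimulated libraries, against 47.7, 55.3, 46.6 and 52.6 CPM in control unstimulated libraries. The groups were apart, with log2 changes of 1.25 ± 0.07 in deficient and 1.39 ± 0.06 in control cells. Its partner Farsa, the alpha subunit, changed by 0.85 and 0.90.

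Tars, the threonyl enzyme whose promoter holds both motifs (chromosome 15, 11382301 to 11399665, minus strand), had 459, 493 and 497 CPM in deficient stimulated libraries, against 177, 188 and 169 CPM in deficient unstimulated libraries. In control cells it had 482, 494 and 481 CPM in stimulated libraries, against 191, 200.1, 190.1 and 179 CPM in unstimulated libraries. Stimulated libraries stood well above the rest, with log2 changes of 1.44 ± 0.06 (adjusted p = 3.2e-11) in deficient and 1.35 ± 0.06 (adjusted p = 1.3e-11) in control cells. Gars, Nars, Kars, Dars, Lars, Iars and Yars rose as well, with log2 changes of 0.98 to 1.27 in deficient and 1.01 to 1.31 in control cells. Smaller rises were seen for Sars (0.89 and 0.91), Hars (0.76 and 0.82), Wars (0.80 and 0.76), Aars (0.61 and 0.60), Cars (0.50 and 0.48) and Mars, the methionyl enzyme that also charges the initiator tRNA (0.29 and 0.25), in deficient and control cells in that order. Aars shares 1326 exon bases (23.1% of its own) with Exosc6 on the same strand, so reads of the 2 genes cannot be told apart there.

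Qars, the glutaminyl enzyme (chromosome 9, 108507706 to 108515941, plus strand), went against its class. It had 99.4, 97.5 and 96.8 CPM in deficient stimulated libraries, against 117, 121 and 116 CPM in deficient unstimulated libraries. Control stimulated libraries had 103, 88.6 and 97.5 CPM, against 125, 116, 115 and 113 CPM in control unstimulated libraries. Every stimulated library lay below every unstimulated one, and the log2 change was -0.27 ± 0.06 (adjusted p = 0.00091) in deficient and -0.28 ± 0.06 (adjusted p = 0.00035) in control cells. Vars (chromosome 17, 35000987 to 35016322, plus strand) had 493, 503 and 494 CPM in deficient stimulated libraries, against 475, 531 and 503 CPM in deficient unstimulated libraries. In control cells it had 481, 522 and 473 CPM in stimulated libraries, against 549, 580.4, 523 and 508 CPM in unstimulated libraries. The groups overlapped in both genotypes. The log2 change was -0.02 ± 0.06 in deficient cells (95% interval -0.15 to 0.12; adjusted p = 0.84) and -0.13 ± 0.06 in control cells (-0.26 to -0.01; adjusted p = 0.066). With the library number as a replicate block Vars was called lower in control cells (-0.16; adjusted p = 0.0033, over a range of 4.3e-05 to 1 among the alternatives). It was also called there with upper-quartile factors (-0.20), a filter of 1 CPM in 3 libraries (-0.15) and a sex term (-0.14), and without control unstimulated library 4 (-0.16; adjusted p = 0.035), control stimulated library 2 (-0.18; adjusted p = 0.037) or deficient unstimulated library 1 (-0.13; adjusted p = 0.048).

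**Figure D3:**
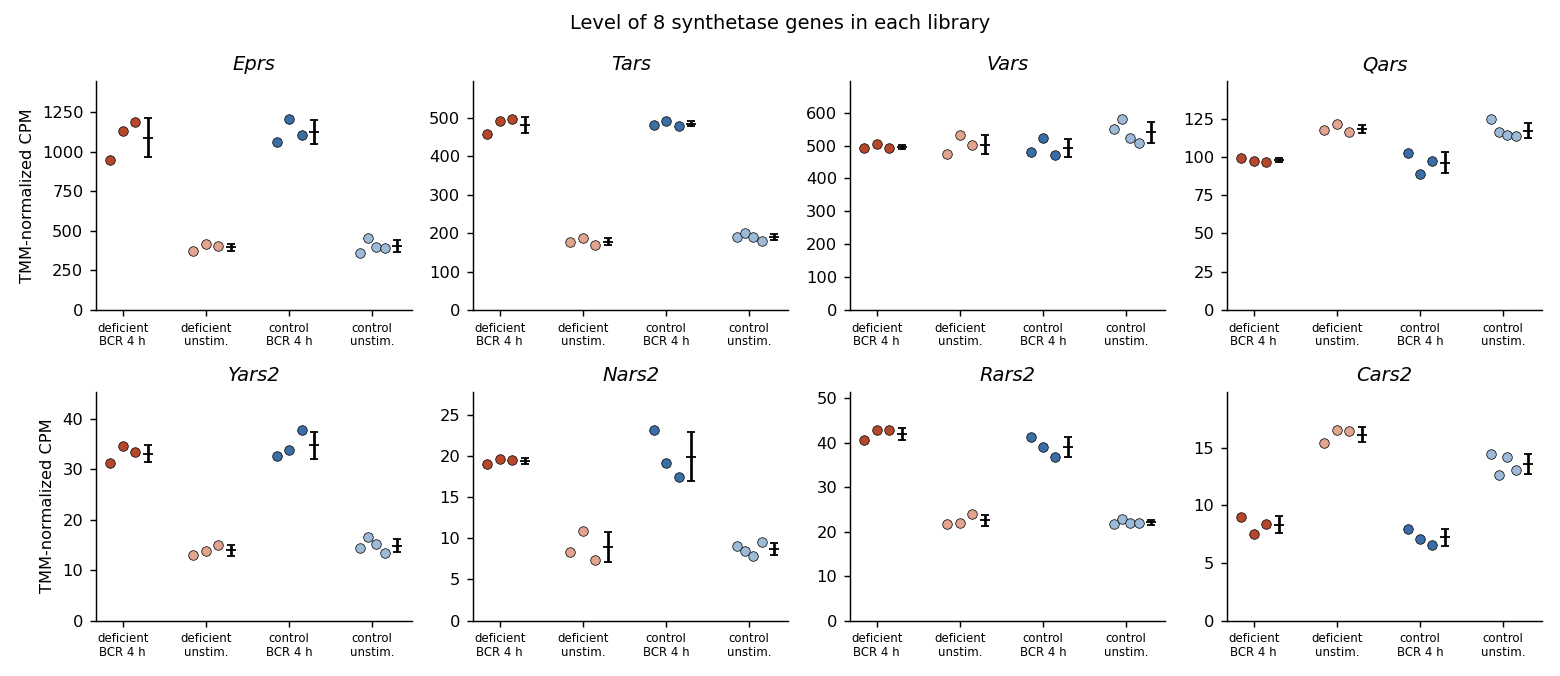
TMM-normalized CPM (y axis, from 0) of 4 cytosolic (top) and 4 mitochondrial (bottom) synthetase genes in each library (points), with mean ± SD per group (n = 3, and 4 for control unstimulated). Eprs, Tars, Yars2, Nars2 and Rars2 are higher and Qars and Cars2 lower in stimulated libraries with no overlap, while Vars overlaps in both genotypes. Of all 13574 genes, 4088 are higher and 4326 lower without overlap in deficient cells, and 4033 and 4582 in control cells.

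All 8 enzymes and 3 scaffold genes of the multi-synthetase complex were called in both genotypes, as were 11 of the other 12 cytosolic enzymes. Of the 8 enzymes of the complex 7 rose and Qars fell, with a median log2 change of 1.13 in deficient and 1.13 in control cells, beside 0.87 and 0.90 for the other 12 cytosolic enzymes. All 3 scaffold genes rose. Over all genes 28.3% rose and 29.6% fell in deficient cells, and 28.5% rose and 31.8% fell in control cells. Eef1e1 had 75.9, 75.1 and 70.3 CPM in deficient stimulated libraries, against 17.2, 20.7 and 18.8 CPM in deficient unstimulated libraries, a log2 change of 1.97 ± 0.09. Its change in control cells was 2.00 ± 0.09, more than any synthetase. Aimp2 changed by 1.67 ± 0.10 in deficient and 1.67 ± 0.09 in control cells, and Aimp1 by 0.38 ± 0.07 and 0.29 ± 0.07.

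Mitochondrial enzymes answered stimulation unevenly. Yars2, the tyrosyl enzyme (chromosome 16, 16302965 to 16309640, plus strand), had 31.2, 34.6 and 33.5 CPM in deficient stimulated libraries, against 13.0, 13.8 and 15.1 CPM in deficient unstimulated libraries. Control stimulated libraries had 32.7, 33.8 and 37.8 CPM, against 14.4, 16.5, 15.1 and 13.4 CPM in control unstimulated libraries. Stimulated libraries stood far above unstimulated ones, with log2 changes of 1.25 ± 0.10 (adjusted p = 1.6e-08) in deficient and 1.23 ± 0.09 (adjusted p = 5.8e-09) in control cells. Nars2, the asparaginyl enzyme (chromosome 7, 96951505 to 97064758, plus strand), had 19.1, 19.7 and 19.5 CPM in deficient stimulated libraries, against 8.34, 11.0 and 7.43 CPM in deficient unstimulated libraries. In control cells it had 23.2, 19.1 and 17.5 CPM in stimulated libraries, against 9.07, 8.42, 7.91 and 9.52 CPM in unstimulated libraries. The groups were apart in both genotypes, and the log2 changes were 1.12 ± 0.14 in deficient and 1.19 ± 0.13 in control cells.

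Rars2, the arginyl enzyme (chromosome 4, 34614957 to 34660167, plus strand), rose less. It had 40.5, 42.9 and 42.8 CPM in deficient stimulated libraries, against 21.7, 22.0 and 24.0 CPM in deficient unstimulated libraries. Control stimulated libraries had 41.4, 39.1 and 36.9 CPM, against 21.7, 22.8, 21.8 and 22.0 CPM in control unstimulated libraries. These groups did not overlap, with log2 changes of 0.90 ± 0.07 in deficient and 0.82 ± 0.07 in control cells. Aars2, the alanyl enzyme (chromosome 17, 45506841 to 45520843, plus strand), had 27.4, 25.7 and 28.1 CPM in deficient stimulated libraries, against 15.3, 19.7 and 18.0 CPM in deficient unstimulated libraries. In control cells it had 25.4, 26.7 and 28.5 CPM in stimulated libraries, against 19.5, 18.3, 15.3 and 15.9 CPM in unstimulated libraries. All stimulated libraries were higher, by 0.62 ± 0.11 in deficient and 0.64 ± 0.10 in control cells on the log2 scale. Ears2, Mars2, Tars2, Wars2 and Sars2 also rose in both genotypes, with log2 changes of 0.35 to 0.62 in deficient and 0.39 to 0.62 in control cells.

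Cars2, the cysteinyl enzyme (chromosome 8, 11513977 to 11550783, minus strand), fell most. It had 9.01, 7.55 and 8.37 CPM in deficient stimulated libraries, against 15.4, 16.6 and 16.4 CPM in deficient unstimulated libraries. Control stimulated libraries had 7.99, 7.13 and 6.57 CPM, against 14.5, 12.7, 14.2 and 13.1 CPM in control unstimulated libraries. Stimulated libraries held 0.515 of the unstimulated level in deficient and 0.532 of it in control cells, with log2 changes of -0.96 ± 0.12 (adjusted p = 2.7e-06) in deficient and -0.91 ± 0.11 (adjusted p = 2.4e-06) in control cells. Fars2, the mitochondrial phenylalanyl enzyme, fell by 0.56 in deficient and by 0.42 in control cells, and Vars2 by 0.42 and by 0.54, on the log2 scale.

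The remaining mitochondrial enzymes moved little. Iars2 changed by 0.15 ± 0.07 in deficient cells (adjusted p = 0.067) and rose by 0.23 ± 0.06 in control cells (adjusted p = 0.0052). Lars2 changed by 0.27 ± 0.12 in deficient cells (adjusted p = 0.052) and rose by 0.28 ± 0.11 in control cells (adjusted p = 0.032), a call lost without control unstimulated library 2, 3 or 4 or control stimulated library 1 or 2 (0.23 to 0.29; adjusted p = 0.050 to 0.13). With the replicate block both were called in deficient cells, Iars2 at 0.15 (adjusted p = 0.017, range 0.017 to 1) and Lars2 at 0.28 (adjusted p = 0.024, range 0.0069 to 1). Lars2 was also called in deficient cells without deficient unstimulated library 2 (0.41; adjusted p = 0.0069) or control stimulated library 3 (0.28; adjusted p = 0.042), and with a sex term (0.28; adjusted p = 0.030), while without deficient unstimulated library 1 its change was 0.17. Hars2 fell in deficient cells by 0.21 ± 0.08 (adjusted p = 0.048), a call that held only on leaving out deficient unstimulated library 1 or control unstimulated library 2 and was lost on leaving out any 1 of the other 11 libraries (adjusted p = 0.051 to 0.20), and its change in control cells was -0.13 ± 0.08 (adjusted p = 0.16). Pars2 was not called in either genotype, at -0.09 ± 0.15 in deficient and -0.06 ± 0.14 in control cells. Iars2 shares 2034 exon bases (30.5% of its own) with Rab3gap2 on the other strand, and Hars and Hars2 share 195.

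For the same amino acid, the cytosolic gene usually gained more than its mitochondrial counterpart. Of 17 such pairs compared, with Eprs paired with both Ears2 and Pars2 and Fars2 with both Farsa and Farsb, 14 had the larger log2 change in the cytosolic gene in deficient cells and 14 in control cells. The widest gaps were those of Farsb and Fars2, 1.81 apart in deficient and 1.80 apart in control cells, and of Eprs and Pars2, 1.55 and 1.54 apart. Nars and Nars2 rose alike, at 1.15 and 1.12 in deficient and 1.22 and 1.19 in control cells. The 3 pairs in which the mitochondrial gene changed more were Yars and Yars2 (0.98 and 1.25 in deficient, 1.01 and 1.23 in control cells), Mars and Mars2 (0.29 and 0.51, 0.25 and 0.54) and Aars and Aars2 (0.61 and 0.62, 0.60 and 0.64). In the last of these the difference was smaller than the SE of either change.

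**Figure D4:**
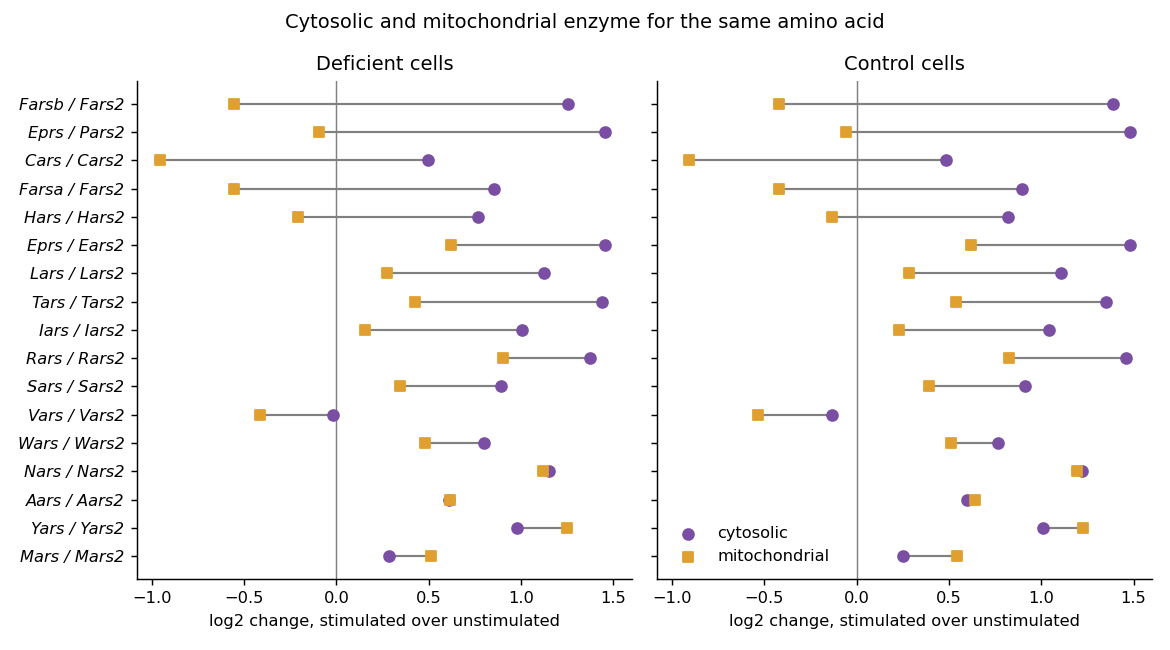
Log2 change after stimulation (x axis) of the cytosolic (circle) and mitochondrial (square) enzyme for the same amino acid (rows, ordered by their gap in control cells), in deficient cells (left) and control cells (right). The circle lies to the right in 14 of 17 pairs in each genotype, and the widest gap in control cells is 1.80 for Farsb and Fars2.

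Other genes of tRNA biology moved in both directions. Of 13 listed genes for tRNA maturation and export 11 were tested: 7 rose and 2 fell in deficient cells, and 7 rose and 2 fell in control cells, with median log2 changes of 0.76 and 0.90, where 28.3% of all genes rose and 29.6% fell in deficient cells and 28.5% rose and 31.8% fell in control cells. Xpot, which exports tRNAs from the nucleus, changed by 1.56 ± 0.06 in deficient and 1.57 ± 0.06 in control cells, and Elac2, which trims tRNA 3′ ends, by 1.73 ± 0.08 and 1.70 ± 0.07. Ssb, the La protein that binds new tRNA transcripts, changed by 0.76 ± 0.05 and 0.85 ± 0.05. Tsen34, a subunit of the tRNA splicing endonuclease, fell in both genotypes, to 7.93, 8.33 and 9.08 CPM in deficient stimulated libraries, against 19.2, 21.2 and 20.3 CPM in deficient unstimulated libraries, a log2 change of -1.26 ± 0.10. Of 9 tested genes for other aminoacylation, editing and mitochondrial amidotransferase steps, 2 rose and 1 fell in deficient cells, and 3 rose and 2 fell in control cells, with medians of -0.02 and -0.09, a share rising that is near that of all genes. Those that rose include Mtfmt, which formylates the mitochondrial initiator tRNA (0.60 ± 0.10 and 0.54 ± 0.09), and Sepsecs, which makes selenocysteinyl-tRNA (0.59 ± 0.10 and 0.87 ± 0.10).

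Elongation factors, which carry charged tRNAs to the ribosome and move it along, were followed as well. Of 5 cytosolic ones 4 rose and 0 fell in deficient cells, and 4 rose and 1 fell in control cells, with medians of 0.36 and 0.34. Of 4 mitochondrial ones 3 rose and 0 fell in either genotype, with medians of 0.56 and 0.54. Gfm1, the mitochondrial translocation factor, led with 1.01 ± 0.08 in deficient and 1.06 ± 0.07 in control cells. Over all genes 28.3% rose and 29.6% fell in deficient cells, and 28.5% rose and 31.8% fell in control cells.

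Among 20 genes of the ATF4 and amino acid response, 17 rose and 1, Ddit4, fell in deficient cells. In control cells 17 rose and 1, again Ddit4, fell. The 2 not called were Asns and Vldlr in deficient cells and Cebpb and Vldlr in control cells. Of all genes 28.3% rose and 29.6% fell in deficient cells and 28.5% and 31.8% in control cells. The medians of the list were 1.10 in deficient and 1.11 in control cells. Psat1, an enzyme of serine synthesis, changed by 1.95 ± 0.09 in deficient and 2.04 ± 0.08 in control cells. The amino acid carriers Slc7a1 (1.57 ± 0.07 and 1.68 ± 0.06), Slc7a5 (1.40 ± 0.06 and 1.39 ± 0.06) and its heavy chain Slc3a2 (1.37 ± 0.07 and 1.42 ± 0.07) rose too. Atf4 itself changed by 0.70 ± 0.06 and 0.56 ± 0.05. Myc, a transcription factor of growing cells, had 2107, 2222 and 2443 CPM in deficient stimulated libraries, against 179, 237 and 269.9 CPM in deficient unstimulated libraries. Its log2 change was 3.30 ± 0.16 in deficient and 3.36 ± 0.14 in control cells. Mxd4, whose protein competes with MYC for MAX, fell by 2.41 ± 0.13 in deficient and by 2.68 ± 0.13 in control cells, on the log2 scale.

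Loss of Regnase-1 changed no synthetase gene past the threshold. In stimulated cells edgeR's quasi-likelihood test called 0 of 37 members, where 2.01% of all genes were called. At an unadjusted p under 0.05 edgeR found 1 member, where 12% of all genes were found, DESeq2 found 3 and limma on the deposited log2 values 2. In unstimulated cells edgeR called 0 of 37, where 0.324% of all genes were called, with 3, 3 and 4 members at an unadjusted p under 0.05 by the same tools (8.63% of all genes by edgeR). The share of all genes at an unadjusted p was computed for edgeR only, so the DESeq2 and limma counts have none beside them. The 95% intervals of the log2 difference, deficient over control, bound what was measured: all 20 cytosolic enzymes lay within -0.30 to 0.21 in stimulated and -0.27 to 0.26 in unstimulated cells. Those of the 16 mitochondrial enzymes described here lay within -0.36 to 0.45 in stimulated and -0.34 to 0.47 in unstimulated cells. A fold over 1.16 or under 0.814 was thus outside every cytosolic enzyme's interval in stimulated cells.

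**Figure D5:**
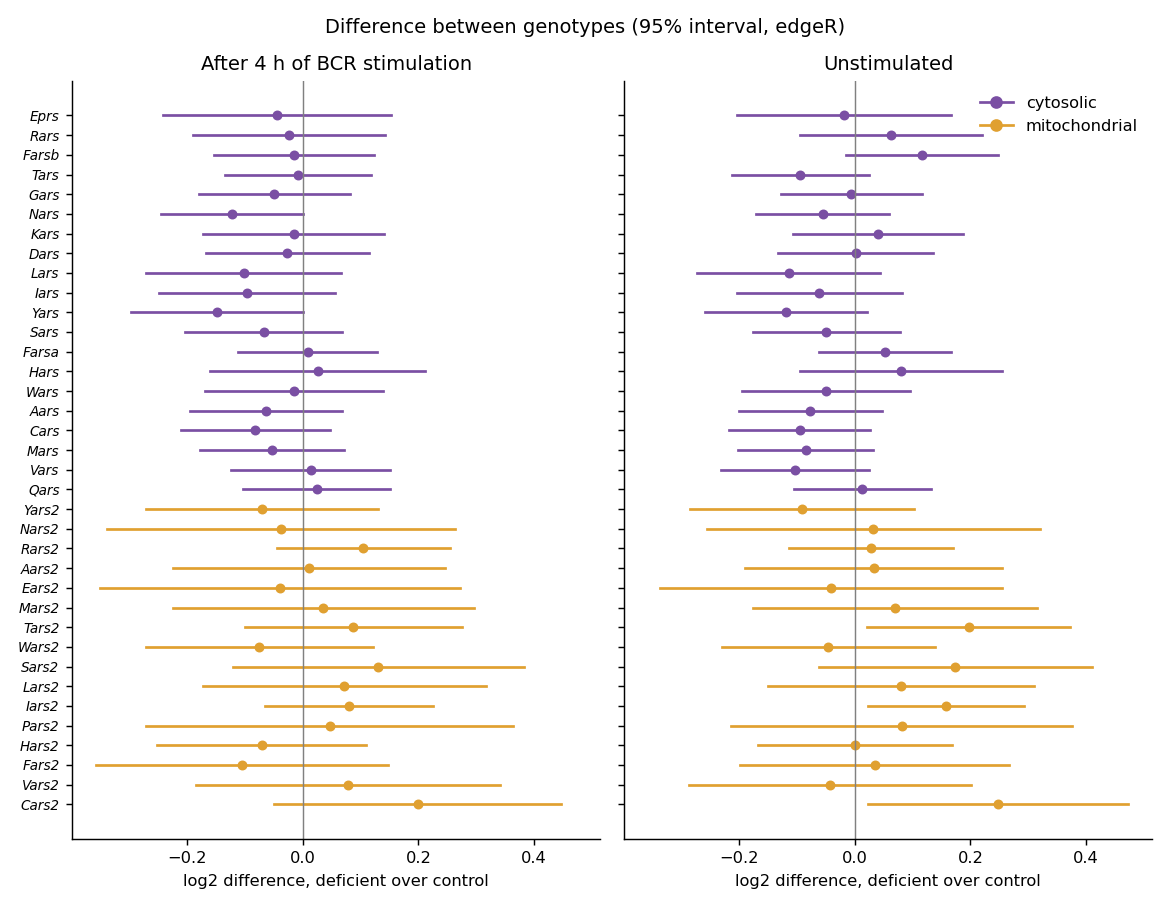
Log2 difference between genotypes (x axis, deficient over control; points, with 95% intervals from edgeR as bars) of each synthetase gene (rows), in stimulated cells (left) and unstimulated cells (right). Intervals of cytosolic enzymes stay within -0.30 and 0.26, and those of mitochondrial enzymes within -0.36 and 0.47.

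Nars had 724, 774 and 795 CPM in deficient stimulated libraries, against 832, 841 and 823 CPM in control stimulated libraries. These did not overlap, but the difference of -0.12 ± 0.06 was not called (adjusted p = 0.42). Yars and Aars were likewise lower in every deficient stimulated library, at -0.15 and -0.06 (adjusted p = 0.42 and 0.79), so that 3 of 37 members were lower without overlap, where 10% of all genes were lower and 17.8% apart in either direction. Without deficient stimulated library 1 the differences were -0.07 for Nars, -0.07 for Yars and -0.04 for Aars.

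In unstimulated cells Iars2 had 78.2, 82.1 and 77.9 CPM in deficient libraries, against 77.6, 72.2, 66.5 and 68.6 CPM in control libraries. All deficient libraries were higher, by 0.16 ± 0.06 on the log2 scale (unadjusted p = 0.025; adjusted p = 0.48 by edgeR). Tars2, the threonyl enzyme, had 33.2, 37.5 and 35.0 CPM in deficient unstimulated libraries, against 34.0, 33.3, 27.8 and 27.9 CPM in control unstimulated libraries, which overlap, with a difference of 0.20 ± 0.08 (adjusted p = 0.51). Cars2 was higher in all deficient unstimulated libraries, by 0.25 ± 0.11 (adjusted p = 0.52). Iars2 and Cars2 were the 2 of 37 members apart, both higher in deficient cells, where 3.14% of all genes were higher and 8.72% apart in either direction.

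The response to BCR stimulation was not shown to differ between genotypes for any member. The test of the difference of responses called 0 of 37, where 0.00737% of all genes were called, and 0 members had an unadjusted p under 0.05 by edgeR, DESeq2 or limma, where 3.76% of all genes had one by edgeR. With the replicate block 2 members did, a count for which the share of all genes was not computed. After adjustment 0 members passed with the block, where 48 of the 13574 genes were called higher and 20 lower. For Farsb the difference was -0.13 (95% interval -0.32 to 0.06; unadjusted p = 0.16). Intervals of the cytosolic enzymes lay within -0.32 to 0.31. These intervals and the Farsb p-value come from the edgeR fit without the block, which does not use the pairing of library numbers.

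The calls of both responses largely fell on the same genes, in libraries that the 2 responses do not share. All 27 members that rose in deficient cells rose in control cells (93.1% of the 29 there), where Iars2 and Lars2 rose in addition. Of the 5 that fell in each genotype 4 were shared (80% of each), with Hars2 called only in deficient cells. Across the 37 genes the log2 changes followed each other with a Pearson r of 0.990 and a Spearman rho of 0.993, and the median absolute difference was 0.043, beside 0.116 for all genes. The members had at least 164 counts in every library, while the filter for all genes used a minimum count of 10. Those 2 medians were not matched for level. These points share libraries and depth within each genotype and are given as a description. Over all genes 28.3% rose and 29.6% fell in deficient cells, and 28.5% rose and 31.8% fell in control cells. The overlap of calls and the correlations were not computed over all genes, so they are not shown to be particular to these members.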

How the data were processed

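Per the submitters' processing notes, reads were handled with TopHat, HTSeq and DESeq2 on mm10. Annotation, strand setting and versions are not given in the sources used here. The authors deposited, for each of 13 libraries, raw read counts per gene symbol and log2 values, whose exact transformation is likewise not given. One symbol with a missing cell was left out. The counts were tested in R 4.3.3 with edgeR 4.0.16: genes were kept by filterByExpr (minimum count 10, group-wise), TMM scaling was applied, and 1 robust quasi-likelihood model with 4 group means was fitted to the 13 libraries (9 residual degrees of freedom), with p-values adjusted by Benjamini-Hochberg over 13574 genes and called under 0.05. The script was tested on simulated data. Levels are TMM-normalized CPM. SE is the log2 change over the root of F. DESeq2 1.42.0 and limma 3.58.1 (also on the deposited log2 values) were alternatives. Coordinates and exon lengths are from GENCODE vM21, promoter windows from RefSeq.

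The members and lists were chosen with earlier results of these data known. Counts and sums cover all members, of which 1 is not reported by name here, and the pairs and figures of single genes leave it out. Values per library are given for the 4 largest and 2 lowest changes per class in control cells and the 2 smallest p per genotype comparison; Yars, Aars and Cars2 were added there for their separation. Of other lists up to 4 genes by p are named, and Tsen34, Atf4, Ddit4, Asns, Cebpb and Vldlr, which were chosen after their values were seen. Library numbers come from the titles. Deviations of same-numbered libraries in both states correlated at 0.80, 0.75 and 0.56 in deficient and 0.71, 0.60 and 0.57 in control cells over 8656 genes. The numbers were therefore taken to pair the states within a genotype. The main model of 4 group means does not use this pairing. Its SE, intervals and p-values for the responses and their difference treat same-numbered libraries as independent. The replicate block, an alternative, uses the pairing. Replicates differed by 8.22 to 36.1 chi-square per gene, above sampling noise. Counts of members ran from 1194 per library (cytosolic) and 164 (mitochondrial) up, and the median CV within a group was 4.04 to 5.60% and 6.52 to 9.30%. Intervals cover the spread between libraries only.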

Additional observations from a re-analysis of the deposited data

Results flagged for a closer look

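In 39 values tested for a library apart from the other 3 of its group (37 genes and 2 sums, control unstimulated libraries, the only group of 4), 2 were found, where chance gives about 1 in 20. Dars was lowest in control unstimulated library 4, at 61.9 CPM against 69.2 to 69.3 CPM in the other libraries. Pars2 was highest in control unstimulated library 2, at 13.7 CPM against 10.4 to 10.8 CPM in the others, and without that library its change in control cells turned to 0.043.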

How the results depend on the processing

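Of the 37 members 29 kept their call and sign in both responses under every alternative except the minimum fold; Hars2, Iars2, Lars2, Mars, Vars, Sars2 and Pars2 were among those that did not, and the cause was not tested. All genotype counts stayed at 0. Sars2 lost its call in deficient cells without deficient unstimulated library 1 (0.28) or 3 (0.32) or deficient stimulated library 2 (0.29) or 3 (0.34), and with upper-quartile factors (0.26) or library totals (0.19); Hars2 was called in control cells with these 2 scalings (-0.20 and -0.28). In deficient cells Hars2 lost its call with DESeq2 (-0.17), its size factors (-0.17), the deposited log2 values (-0.15), no filter (-0.21) and only the groups compared (-0.21), while Iars2 (0.19) and Lars2 (0.31) gained one with DESeq2 and its size factors. Signs turned for Vars in deficient cells with DESeq2's size factors (0.019), DESeq2 (0.019), the deposited log2 values (0.022) and without deficient unstimulated library 2 (0.026), deficient stimulated library 1 (0.023) or both deficient libraries numbered 1 (0.0098), single libraries giving -0.056 to 0.026; for Pars2 in control cells with DESeq2's size factors (0.014), DESeq2 (0.014), the deposited log2 values (0.0080) and without control unstimulated library 2 (0.043) or control stimulated library 3 (0.070), single libraries giving -0.16 to 0.070; and for Iars2 in deficient cells with library totals only (-0.0012). Median changes moved with upper-quartile factors to 0.90 (deficient, cytosolic), 0.26 (deficient, mitochondrial) and 0.95 (control, cytosolic), with library totals to 0.84, 0.19, 0.88 and, for control mitochondrial enzymes, 0.24, with DESeq2 and its size factors to 1.10 (control, cytosolic), and without both deficient libraries numbered 1 to 1.14 (deficient, cytosolic). Leaving out single libraries gave 0.94 to 1.09 (deficient, cytosolic), 0.28 to 0.45 (deficient, mitochondrial) and 0.33 to 0.47 (control, mitochondrial). A minimum fold of 1.5 left 18 members higher and 1 lower in deficient cells and 18 higher and 1 lower in control cells. Summed levels (log2) moved to 0.99 with DESeq2's size factors (control, cytosolic); with library totals to 0.76 and 0.77 (cytosolic, deficient and control) and 0.13 and 0.16 (mitochondrial); and as medians over members to 0.99 and 1.02 (cytosolic) and 0.39 (control, mitochondrial). Among the members described, the replicate block changed no call besides those of Iars2, Lars2 and Vars given above. Over all genes DESeq2 called 65 higher and 98 lower in unstimulated and 168 and 364 in stimulated cells (edgeR 17 and 27, 102 and 171), a sex term 45 and 153, 158 and 353, and a minimum fold 2 and 0, 9 and 3; limma called 5 and 1 in unstimulated cells. The difference of responses had 1 and 0 with edgeR, 26 and 22 with DESeq2 and 48 and 20 with the replicate block. A minimum fold left 1738 and 1751 in the deficient and 1816 and 1953 in the control response. By sex-linked genes the deficient library numbers were 1 female and 2 male, the control ones 3 female and 1 male. Mitochondrial genes had down to 164 counts in a library, cytosolic ones down to 1194.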
